A study of Ovis aries with 48 samples.

Results

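Subcutaneous fat of female sheep exposed to bisphenol A before birth was compared with subcutaneous fat of control sheep, over the small non-coding RNAs of the tissue. The comparison took 8 of the 48 libraries of the series: 4 from exposed sheep (910, 918, 977 and 984) and 4 from controls (902, 908, 924 and 928), chosen by the depot and treatment in their labels. Bisphenol A (BPA) is a plastics chemical with weak oestrogenic activity. In the exposed group 0.5 mg/kg/day of BPA in corn oil was injected daily under the skin from day 30 to day 90 of gestation, and the controls had daily injections of the corn oil vehicle over the same days. All sheep were kept together on a maintenance diet. The labels used here do not give their age at sampling. A second depot, visceral fat, was sampled from the same 8 sheep, and a separate cohort gave subcutaneous fat of 4 controls and 4 sheep exposed before birth to testosterone propionate (100 mg per injection, 2 injections a week, gestation days 30 to 90); both serve below only to show where the subcutaneous BPA comparison differs.

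The RNA came from whole adipose tissue, so each value mixes fat cells with vessel, immune and stromal cells. Fewer cells of a type and less RNA per cell cannot be told apart. The files hold only non-coding RNAs, so adipocyte messenger RNAs could not be used to check the tissue label. Of the marker microRNAs, MIR143 of smooth muscle and mesenchymal cells reached 27281 to 71521 CPM (scaled to the microRNA reads of the library) in the controls and 25751 to 40313 CPM in the exposed sheep. The striated muscle marker MIR133 lay at 117 to 323 and 114 to 300 CPM, and the 4 epithelial and mesothelial markers in the files (MIR200A, MIR200B, MIR200C and MIR194, of 9 listed) summed to 146 to 355 and 196 to 468 CPM. The lymphocyte marker MIR150, the only 1 of 4 listed lymphoid and myeloid markers in the files, reached 3532 to 11702 CPM in controls and 2849 to 3906 CPM in exposed sheep. No listed marker of red cells, neurons, endothelium or liver was in the files.

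4 classes of RNA were measured. MicroRNAs are short RNAs that pair with messenger RNAs through their first bases and lower their translation or stability. Small nucleolar RNAs (snoRNAs) guide the chemical modification of ribosomal RNA and mostly lie in introns of host genes, small nuclear RNAs (snRNAs) form the core of the spliceosome, and long non-coding RNAs (lncRNAs) can host microRNAs and snoRNAs. A size-selected small RNA library catches a lncRNA only as short fragments, or as the small RNAs that lie within it. The values are normalised reads, scaled by the authors within each depot and class; dividing by the step between values gave whole reads back, and the 8 libraries held 270435 to 1547534 of them. Between 84.1 and 86.5% of the reads fell on microRNAs, between 11.3 and 13.0% on lncRNAs, between 0.985 and 3.001% on snoRNAs and between 0.154 and 0.663% on snRNAs. Control sheep 908 stood apart: its snoRNA share was 0.985% against 2.10 to 3.001% in the other 7, and its snoRNA values differed from the mean of the other libraries of its group with an SD of 1.39 on the log2 scale, against 0.60 to 0.80 for the other 7. It is also the only one of the 8 with an early library number (2, the others being 81 or above). Many of the results below, but not all, are therefore given with and without it.

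No feature passed the test. Of 4920 features, 477 had a mean of at least 5 normalised reads over the 8 libraries and were tested (71 microRNAs, 215 snoRNAs, 39 snRNAs and 152 lncRNAs), and 0 of them (0%) had an adjusted p under 0.05 in limma, fitted to log2(value + 1) with Benjamini-Hochberg adjustment within the class. An unadjusted p under 0.05 was reached by 25 of 477 (5.24%), where 23.85 would be expected if no feature differed. The smallest adjusted p of any feature was 0.107. By class, 6 of 71 microRNAs (8.45%), 5 of 215 snoRNAs (2.33%), 6 of 39 snRNAs (15.4%) and 8 of 152 lncRNAs (5.26%) reached that unadjusted level. The 4 exposed sheep lay wholly above or wholly below the 4 controls for 14 of 477 features (2.94%), 5 of them above (1.05%) and 9 below (1.89%). With 4 against 4, a feature that does not differ separates in this way with a probability of 0.0286, close to the share found. Where groups are said below not to overlap, this describes the values and is not a test. The 14 features were 3 of 71 microRNAs (4.23%; 2 above, 2.82%, and 1 below, 1.41%), 5 of 215 snoRNAs (2.33%; 2 above, 0.93%, and 3 below, 1.4%), 6 of 152 lncRNAs (3.95%; 1 above, 0.658%, and 5 below, 3.29%) and 0 of 39 snRNAs (0%). The log2 fold change was above 0 for 262 of 477 features (54.9%).

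The precision limits what these counts exclude. The 95% interval of a fold change reached a median of 0.63 to either side for microRNAs, 0.83 for snoRNAs, 0.58 for snRNAs and 0.93 for lncRNAs on the log2 scale, and lay wholly between a halving and a doubling for 158 of 477 features, 37 of them microRNAs. Other settings called a few snRNAs: edgeR's quasi-likelihood test on the recovered reads called 3, a lower limit on the mean 3, leaving out control 924 called 1 and leaving out BPA sheep 977 called 5, all with higher values after BPA, and DESeq2 called 0. These snRNAs are described below.

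**Figure D1:**
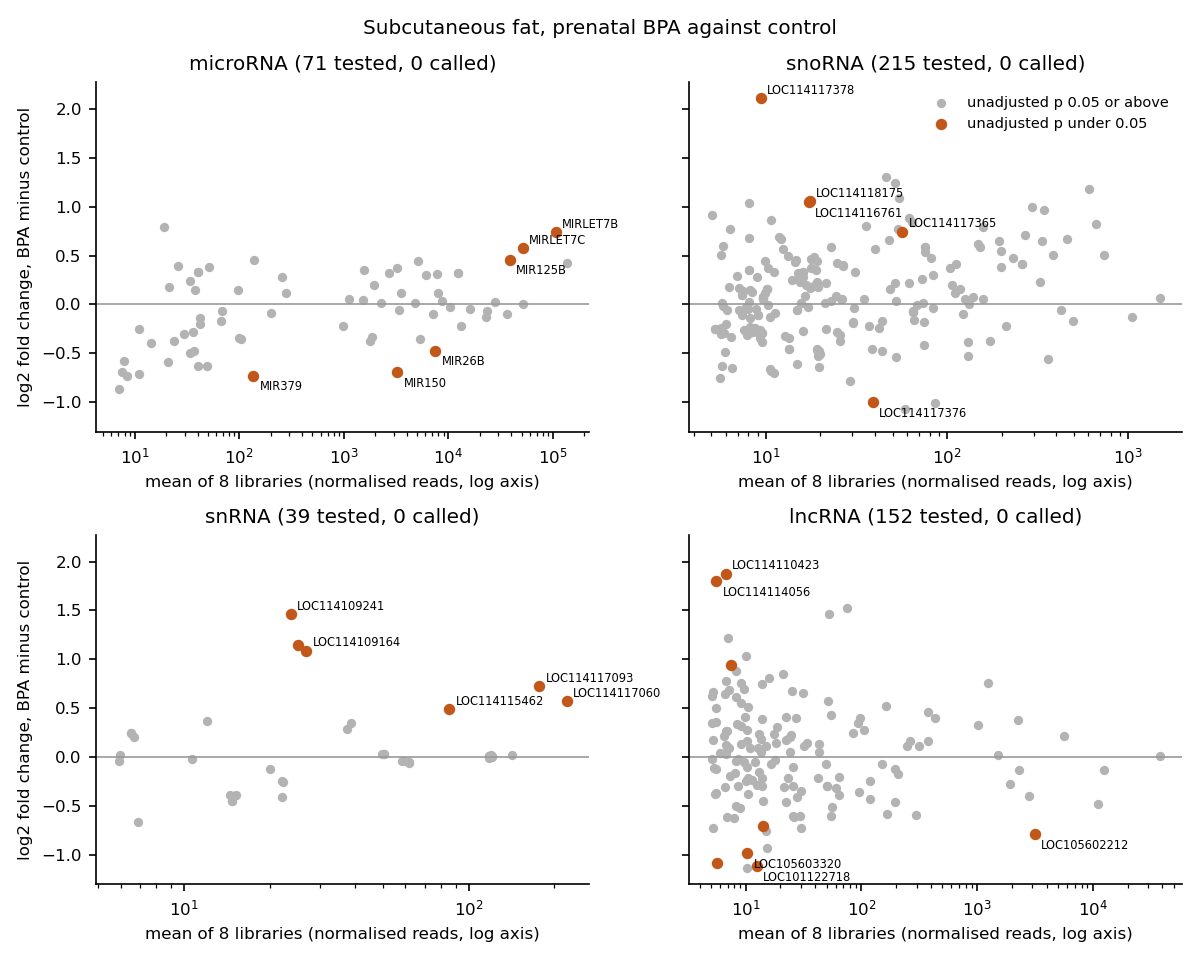
Each point is 1 of the 477 tested features, in a panel per RNA class, with its mean over the 8 libraries on a log axis and its log2 fold change (BPA minus control) on the vertical axis. Orange points have an unadjusted p under 0.05 (25 features), and 0 features passed after adjustment; the snoRNAs and lncRNAs with the largest differences lie at the low end of the levels, while the microRNAs MIRLET7B, MIRLET7C and MIR125B lie at the high end.

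The microRNA pool was dominated by let-7, a family that restrains growth programmes and the insulin and IGF pathway in many tissues. Its 7 members in the files took 56.5 to 62.9% of the microRNA reads in exposed sheep (58.6% ± 2.93, SD, n = 4) and 43.5 to 58.2% in controls (51.9% ± 6.64, SD, n = 4). Controls 908 and 924 were the lowest, at 43.5 and 49.8%; control 902 lay among the exposed sheep and control 928, at 56.2%, just below them. The exact permutation test over the 70 splits of the 8 sheep gave a two-sided p of 0.171 (adjusted 0.3 over 7 read totals and shares; the smallest p that 4 against 4 can give is 0.0286). The 5 most abundant microRNAs of each library together took 60.6 to 65.5% of its microRNA reads after BPA and 50.5 to 59.6% in controls, so the groups did not overlap; this measure was singled out after its values were seen and was not tested.

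The 5 microRNAs of highest mean level were MIRLET7A, MIRLET7B, MIR99A, MIRLET7C and MIR125B. MIRLET7B had the smallest p of the class. Its normalised reads were 132000, 170365, 112271 and 112458 in exposed sheep 910, 918, 977 and 984 and 94712, 74360, 50074 and 102342 in controls 902, 908, 924 and 928. Every exposed sheep lay above every control. The log2 fold change was 0.74 (SE 0.24, 95% interval 0.21 to 1.28, adjusted p = 0.511 in limma).

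MIRLET7C, a close relative of let-7b in sequence, had 59246, 78091, 52769 and 52909 normalised reads after BPA and 52990, 30555, 28502 and 56552 in controls. Controls 908 and 924 were low and controls 902 and 928 lay among the exposed sheep, so the groups overlapped; the log2 fold change was 0.58 (SE 0.25, adjusted p = 0.511). MIRLET7A, the most abundant microRNA of the tissue, had 140207, 196076, 135486 and 142296 after BPA and 134176, 91154, 88268 and 150169 in controls. The same 2 controls were low and BPA sheep 918 was high, and the log2 fold change was 0.43 (SE 0.22, adjusted p = 0.522). Of the other members, MIRLET7D had a log2 fold change of 0.30, MIRLET7I of 0.02, MIRLET7G of -0.13 and MIRLET7F of -0.22. In all, 5 of 7 let-7 members were above 0, with a median of 0.30, beside 34 of 71 (47.9%) and a median of -0.05 for all microRNAs tested, and 0 of 7 were called. The 71 include the 23 tested members of the imprinted DLK1-DIO3 cluster described below, of which 21 stood below 0 and lower this background. BPA sheep 918 was the highest of the 8 for 6 of the 7 members. Without control 908 the median was 0.21 with 4 of 7 above 0, and MIRLET7B, MIRLET7C and MIRLET7A stood at 0.72, 0.44 and 0.32.

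The scale of the microRNAs bears on these directions. When reads were scaled to the total of the class (CPM) the median microRNA moved by -0.25 on the log2 scale and 20 of 71 (28.2%) stood above 0, and with 1 size factor over all 4 classes it moved by -0.40 and 8 of 71 (11.3%) stood above 0. The let-7 median followed, to 0.05 (4 of 7 above 0) and -0.10 (3 of 7). Its distance to the median microRNA, 0.35, is the same under both scalings by construction, and it was 0.19 without control 908. That median too includes the DLK1-DIO3 members, most of which lay below 0. MIRLET7B, MIRLET7C, MIRLET7A and MIR125B kept positive fold changes under both scalings, down to 0.35, 0.18, 0.03 and 0.06.

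MIR99A and MIR125B belong to families that sit beside let-7 genes in several genomic clusters; in the RefSeq annotation of sheep (assembly ARS-UI_Ramb_v3.0, used here for names and neighbours only) MIR99A and MIRLET7C lie in 1 lncRNA gene, LOC121816219. MIR99A had 61604, 57924, 39610 and 47582 normalised reads after BPA and 47064, 62430, 38878 and 58668 in controls. Its groups overlapped fully, with a log2 fold change of 0.00 (SE 0.21, 95% interval -0.45 to 0.46), beside the 0.58 of its neighbour MIRLET7C.

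MIR125B, a regulator of differentiation and of inflammatory signalling, had 39488, 52271, 40456 and 45500 normalised reads after BPA and 30231, 39484, 26125 and 34336 in controls. The exposed sheep all lay above the controls, sheep 910 above control 908 by only a few reads. The log2 fold change was 0.46 (SE 0.18, 95% interval 0.07 to 0.84, adjusted p = 0.511). MIR125B lies within the lncRNA gene LOC105602212, which went the other way. That lncRNA had 2250, 1923, 2333 and 2425 normalised reads after BPA and 2764, 6478, 3218 and 3817 in controls. All exposed sheep lay below all controls, of which 908 was by far the highest, and the log2 fold change was -0.79 (SE 0.28, adjusted p = 0.695), or -0.54 without control 908. Which of the reads over the microRNA were counted for the lncRNA was not stated in the labels used here.

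MIR26B, encoded in an intron of the phosphatase gene CTDSP1 and known to promote adipocyte differentiation, was the only microRNA whose exposed sheep all lay below the controls. It had 6528, 5580, 6256 and 6487 normalised reads after BPA and 6928, 11480, 8661 and 8017 in controls. The log2 fold change was -0.48 (SE 0.17, 95% interval -0.86 to -0.09, adjusted p = 0.511) and -0.34 without control 908, the highest. Its relative MIR26A had a log2 fold change of -0.10 (SE 0.16).

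MIR150, a microRNA of mature lymphocytes, had 2092, 2412, 2371 and 2581 normalised reads after BPA and 2698, 5987, 5488 and 2408 in controls. Controls 908 and 924, which were low in let-7, were high here, while the other 2 controls were near the exposed sheep. The log2 fold change was -0.70 (SE 0.29, adjusted p = 0.511), and -0.48 without control 908. The part of lymphocyte content in the other differences was not tested. The spread between sheep was larger in controls than after BPA for 53 of 71 microRNAs, with a median SD of 0.46 against 0.27 on the log2 scale, and for 47 of 71 (0.40 against 0.27) without control 908. The other classes did not share this: it was larger in controls for 14 of 39 snRNAs (median SD 0.32 against 0.45) and 78 of 152 lncRNAs. Among 215 snoRNAs it was larger in controls for 137, but for 93 without control 908.

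**Figure D2:**
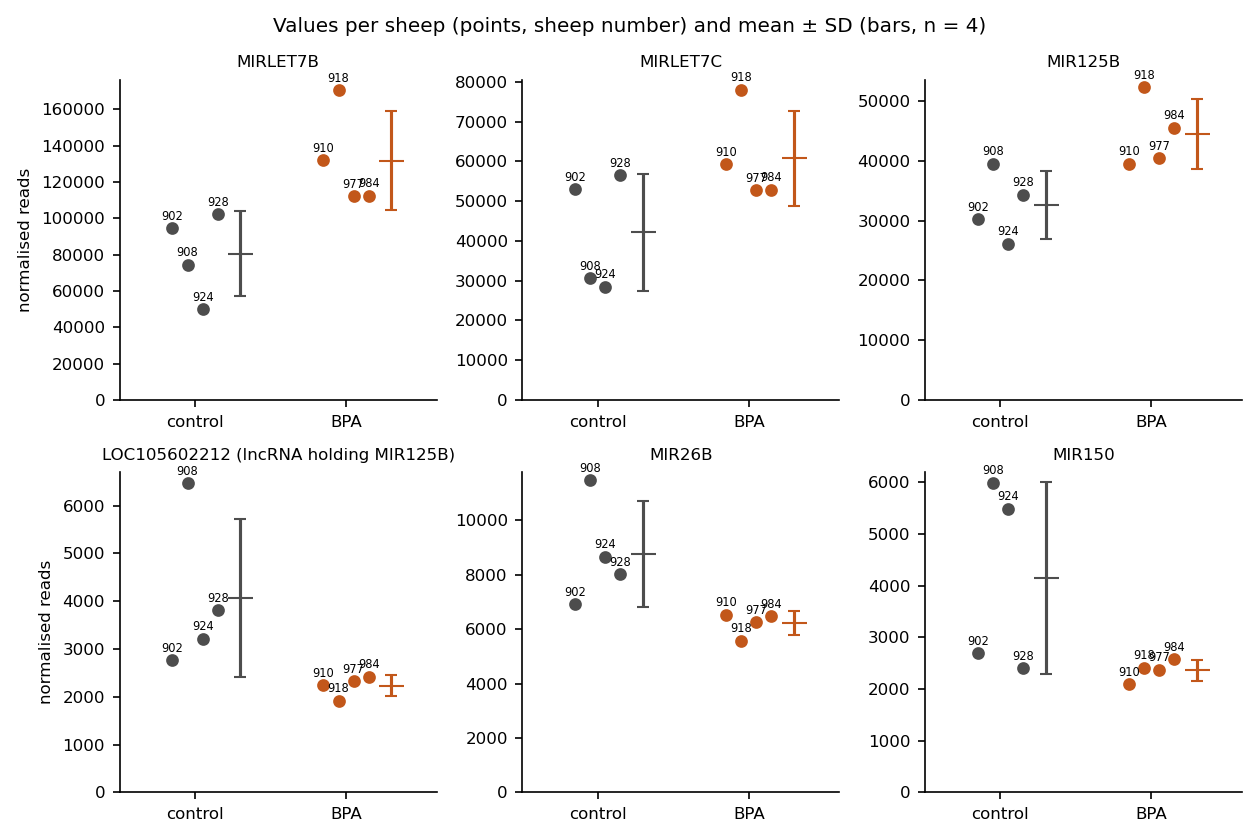
Normalised reads of 5 microRNAs and of the lncRNA LOC105602212, which holds MIR125B, in each of the 4 control and 4 BPA sheep (points with sheep numbers), with the mean and SD of each group (bars, n = 4). The BPA sheep lie wholly above the controls for MIRLET7B and MIR125B and wholly below for LOC105602212 and MIR26B, and controls 908 and 924 stand apart from the other 6 sheep for MIRLET7C and MIR150.

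The imprinted DLK1-DIO3 region carries one of the largest microRNA clusters of mammals, expressed from the maternal chromosome as long transcripts, and is linked in sheep to muscle and fat mass through the callipyge mutation. Of 60 listed microRNAs 54 were in the files and 23 passed the limit on the mean, so the other 31 say nothing here. Among the 23, 21 had a log2 fold change below 0 and 2 above it, with a median of -0.40 beside -0.05 for all 71 microRNAs, and 0 were called. MIR379 had the smallest p of them, with 108.7, 70.6, 123 and 96.7 normalised reads after BPA and 246, 144, 196 and 101.1 in controls. Control 902 was the highest and control 928 lay among the exposed sheep; the log2 fold change was -0.73 (SE 0.32, 95% interval -1.43 to -0.03, adjusted p = 0.511).

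MIR3959 lay near the lower limit, with 6.04, 3.16, 8.60 and 2.25 normalised reads after BPA and 8.59, 9.33, 11.2 and 7.22 in controls, a difference of -0.86 on the log2 scale (SE 0.45, adjusted p = 0.522) and groups that overlapped. MIR127, the most abundant member, which is antisense to the retrotransposon-derived gene RTL1, had 1966, 1113, 1536 and 1267 after BPA and 3681, 1024, 2105 and 1538 in controls, with a log2 fold change of -0.38 (SE 0.34). Control 902 was the highest of the 8 sheep for 20 of the 23 members and BPA sheep 918 the lowest for 10. Without control 902, 16 of 23 members were below 0 and the median was -0.25. Under the other scalings it was -0.64 (CPM) and -0.78 (1 size factor over all classes), following the shift of all microRNAs. Its distance to the median microRNA was -0.35, a value that scaling hardly touches, and it was -0.22 without control 902.

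The lncRNA gene LOC105606646 overlaps RTL1 and lies before DIO3 in the RefSeq annotation, and it holds 50 microRNA genes, 49 of them in the files. Of these 20 were tested, 19 with a log2 fold change below 0 and 1 above, with a median of -0.49. The lncRNA itself had 100.8, 130, 152 and 114 normalised reads after BPA and 384, 131, 208 and 110 in controls, highest in control 902, and differed by -0.58 on the log2 scale (SE 0.40, adjusted p = 0.891). It also holds 33 snoRNA genes, all in the files, of which 3 passed the limit on the mean. They had log2 fold changes of 0.86 (LOC114109213), -0.20 (LOC114109209) and -0.28 (LOC114109215), each with a 95% interval that spans 0. The share of the cluster in the microRNA reads was 0.321% ± 0.0904 after BPA and 0.545% ± 0.290 in controls (SD, n = 4 each; exact permutation p = 0.257, adjusted 0.36).

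**Figure D3:**
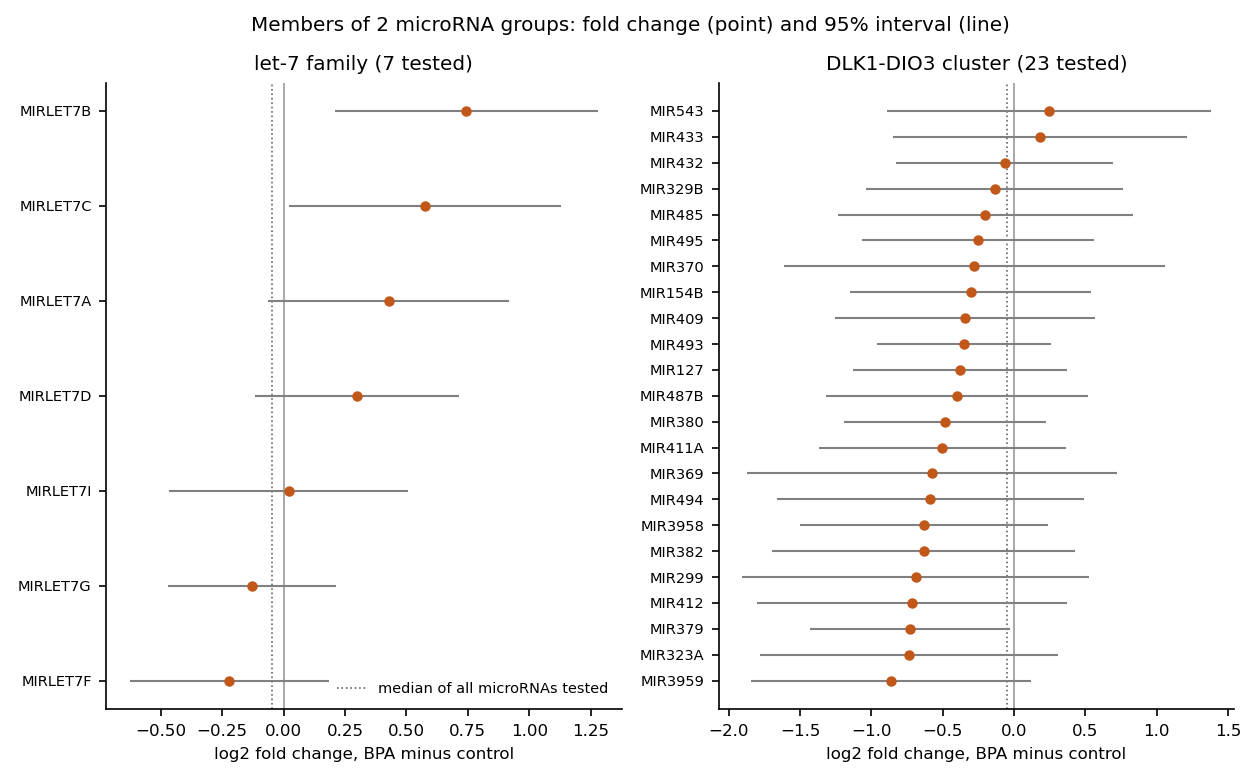
Log2 fold changes (BPA minus control) of the 7 tested let-7 members and the 23 tested members of the DLK1-DIO3 cluster, each with its 95% interval from limma; the dotted line is the median of all 71 microRNAs. Of the let-7 members 5 of 7 lie above 0 and of the cluster 21 of 23 lie below, and only MIRLET7B, MIRLET7C and MIR379 have an interval that does not span 0.

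None of the other microRNA groups with a known part in fat had a member called. The 2 MIR29B copies had identical values in all 8 libraries and the 2 MIR181A copies lay within 0.018 of each other on the log2 scale in each, so each pair is counted as 1 in the lists that follow. Of 13 microRNAs described as pro-adipogenic, 7 stood above 0 with a median of 0.05; after MIR26B the smallest p was that of MIR30D (0.31, SE 0.18, adjusted p = 0.626), of the MIR30 family that represses the osteogenic factor RUNX2. MIR143, linked to adipocyte differentiation, had 21966 ± 3363 normalised reads after BPA and 25139 ± 13236 in controls (SD, n = 4 each), with a log2 fold change of -0.07. Of 9 anti-adipogenic microRNAs, 7 of which are let-7 members, 7 stood above 0 (median 0.30). The 2 that are not let-7 were MIR27A, which represses PPARG (0.44, SE 0.23, adjusted p = 0.522; 0.25 without control 908 and 0.04 with 1 size factor over all 4 classes), and MIR221 (0.02, SE 0.19).

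Of 14 microRNAs tied to insulin action and glucose uptake, 10 stood above 0 with a median of 0.12, and this list too holds the 7 let-7 members. MIR103 and MIR107, which lower insulin sensitivity through caveolin, had log2 fold changes of 0.06 (SE 0.21) and 0.12 (SE 0.23). Of 5 microRNAs of inflammation, 3 stood above 0 (median 0.02), from MIR125B at 0.46 to MIR150 at -0.70, and MIR21, a marker of inflamed and fibrotic tissue, had -0.34 (SE 0.28). These balances turn with the scale. With CPM and with 1 size factor over all 4 classes, 4 and 0 of the 13 pro-adipogenic microRNAs stood above 0, 5 and 4 of the 9 anti-adipogenic, 6 and 3 of the 14 of insulin action (medians -0.14 and -0.28) and 2 and 1 of the 5 of inflammation.

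Of 7 listed microRNAs known to target the oestrogen receptor gene ESR1, 2 were tested, MIR22 (0.37, SE 0.19, adjusted p = 0.522, at 3656 ± 757 normalised reads after BPA and 2799 ± 345 in controls; SD, n = 4 each) and MIR221. The 2 microRNAs of the HOX clusters, which carry the positional identity of a depot, had log2 fold changes of 0.19 (MIR10A, SE 0.44) and -0.35 (MIR10B, SE 0.36).

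In the proliferation group MIR106B, encoded in an intron of the replication gene MCM7, stood at a log2 fold change of 0.35 (SE 0.17; its adjusted p was 0.522) and MIR17 at -0.17 (SE 0.37). MIR23B had 0.04 (SE 0.16). MIR200B, of epithelial cells, was at 30.2, 65.3, 1.43 and 16.9 normalised reads after BPA and 17.2, 5.25, 12.6 and 5.42 in controls, so the exposed sheep spanned the controls (0.79, SE 0.86; 0.15 without BPA sheep 918 and 1.74 without 977), and MIR194 had 0.15 (SE 0.25). With 1 size factor over all 4 classes MIR30D, MIR106B, MIR23B and MIR194 fell on the other side of 0.

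Among the snoRNAs, 125 of 215 (58.1%) stood above 0 with a median of 0.07, which was -0.02 without control 908. The reference table gives no product names for these genes, so they are named by identifier and host gene and could not be grouped by the base modification they guide. Of the 694 snoRNAs in the files 621 were matched to the annotation by symbol. LOC114117378 had the smallest p. It had 5.63, 37.4, 11.7 and 8.21 normalised reads after BPA and 2.63, 0, 7.41 and 1.82 in controls, with BPA sheep 918 far above the others; the log2 fold change was 2.11 (SE 0.71, 95% interval 0.54 to 3.68, adjusted p = 0.865), and 1.57 without control 908, in which it was not detected.

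LOC114117365 had 90.1, 70.9, 67.3 and 53.4 normalised reads after BPA and 44.7, 25.9, 62.7 and 38.3 in controls, a difference of 0.74 on the log2 scale (SE 0.33, adjusted p = 0.865) with 1 control among the exposed sheep. Without control 908, the lowest, the difference was 0.53. LOC114117376 went the other way, with 13.1, 23.4, 36.8 and 25.7 after BPA and 27.6, 91.3, 61.3 and 32.8 in controls (-1.0005, SE 0.44, adjusted p = 0.865; -0.69 without control 908, the highest).

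LOC114116761, in the ribosomal protein gene RPL21, had 20.7, 23.4, 19.7 and 27.7 normalised reads after BPA and 10.5, 4.15, 14.2 and 18.2 in controls. Every exposed sheep lay above every control, and the log2 fold change was 1.05 (SE 0.39, adjusted p = 0.865), or 0.66 without control 908. LOC114118175, in another ribosomal protein gene, RPL13A, whose snoRNAs are known for a part in lipid-induced cell stress, had 31.9, 23.4, 15.5 and 22.6 after BPA and 13.8, 13.5, 15.5 and 3.65 in controls. Sheep 977 and control 924 were level, and the log2 fold change was 1.06 (SE 0.42, adjusted p = 0.865), or 0.63 without control 928, the lowest.

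The groups also did not overlap for 4 other snoRNAs, with adjusted p = 0.865 for each. LOC114110205, within the lncRNA gene LOC114110053 between WDR74 and SLC3A2, was above the controls at 6.81 ± 2.24 against 3.26 ± 1.64 normalised reads. LOC114113388, in the nucleolin gene NCL, was below them at 15.6 ± 5.27 against 23.9 ± 2.9998, LOC114118596, in HSPA8, at 105.2 ± 8.92 against 156 ± 41.9, and LOC114117367, in RAB3GAP2, at 28.8 ± 2.73 against 88.2 ± 97.6 (SD, n = 4 each). Control 908 carried most of the last difference, with 234 normalised reads beside 34.7 to 45.4 in the other 3 controls.

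Of the lncRNAs 80 of 152 (52.6%) stood above 0 with a median of 0.04. LOC101122718, beside ERICH4, had the smallest p, with 4.20, 6.96, 7.67 and 12.03 normalised reads after BPA and 21.3, 13.1, 16.04 and 18.6 in controls. All exposed sheep lay below all controls, and the log2 fold change was -1.12 (SE 0.36, 95% interval -1.90 to -0.34, adjusted p = 0.695). LOC105603320, which overlaps the cell proliferation gene URGCP, had 6.30, 7.83, 4.06 and 8.02 after BPA and 11.8, 16.5, 9.29 and 18.6 in controls, again without overlap (-0.99, SE 0.36, adjusted p = 0.695).

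2 lncRNAs near the lower limit lay on the other side. LOC114110423 had 6.30, 13.9, 17.6 and 6.02 normalised reads after BPA and 3.95, 2.61, 3.38 and 0 in controls, without overlap (1.88, SE 0.63, adjusted p = 0.695). LOC114114056 had 10.5, 1.74, 18.04 and 7.02 after BPA and 2.37, 0.870, 4.22 and 0 in controls, with sheep 918 among the controls (1.80, SE 0.77, adjusted p = 0.875). Neither has an entry in the annotation table. LOC101104162 lies between ST6GALNAC2 and PRCD and overlaps 3 annotated snoRNA genes; it had 45.8 ± 3.09 after BPA and 66.2 ± 8.99 in controls (SD, n = 4 each) with no overlap (-0.51, SE 0.28, adjusted p = 0.891). LOC101111367 had 10.6 ± 3.04 and 17.6 ± 2.89, likewise without overlap (-0.71, SE 0.31, adjusted p = 0.875).

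The snRNAs had the smallest adjusted p of the 4 classes and the features that other settings called, and 23 of 39 (59%) stood above 0. That balance depends on the scale: 12 of 39 (30.8%) stood above 0 with CPM, where the median snRNA moved by -0.18, and 36 of 39 (92.3%) with 1 size factor over all 4 classes, where it moved by 0.44. Many snRNA rows are near copies: when rows within 0.2 of each other on the log2 scale in every library are joined, the 39 tested make 21. In this class limma gave an infinite prior degrees of freedom, so each snRNA took its error from the class and not from its own 8 values. LOC114117093 had the smallest p. It had 166, 267, 133 and 333 normalised reads after BPA and 103.3, 106.7, 157 and 151 in controls. Exposed sheep 977 lay between the controls and the other 3 lay above them; the log2 fold change was 0.72 (SE 0.24, 95% interval 0.25 to 1.19, adjusted p = 0.107), against 0.54 with CPM and 1.16 with 1 size factor.

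LOC114117060, which lies beside it before RAD51C, had 209, 310, 188 and 360 after BPA and 160, 143, 210 and 186 in controls (0.57, SE 0.27, adjusted p = 0.236). Sheep 984 and 918 were the highest for both of this pair, which may share reads, and they are not counted as independent. LOC114115462 had 97.4, 97.3, 58.7 and 155 after BPA and 66.1, 55.9, 77.4 and 76.5 in controls, with sheep 977 among the controls (0.49, SE 0.20, adjusted p = 0.18). It was at 0.31 with CPM and 0.92 with 1 size factor, at 0.26 without BPA sheep 984, the highest, and at 0.72 without sheep 977, where it was called (adjusted p = 0.0146 in limma).

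LOC114109241, LOC114109164 and LOC114109197 rested on 1 sheep. LOC114109241 had 113 normalised reads in BPA sheep 918 and 9.74, 9.51 and 26.02 in the other 3 exposed sheep, against 7.23, 6.35, 8.22 and 9.81 in controls. LOC114109164 had 116 in sheep 918 and 13.0, 13.4 and 23.4 in the others, against 12.4, 8.89, 15.7 and 11.8 in controls, and LOC114109197 had 114 beside 11.4, 10.6 and 23.4, against 10.3, 7.62, 15.1 and 9.81. Their log2 fold changes were 1.46 (SE 0.58, adjusted p = 0.18), 1.09 (SE 0.51, adjusted p = 0.236) and 1.14 (SE 0.54, adjusted p = 0.236), and these 3 are the ones that edgeR called. Without sheep 918 the fold changes of the first 2 were 0.72 and 0.39. The 3 rows follow each other closely and may be copies of 1 gene. Sheep 918 also had the highest share of snRNA reads, 0.663% against 0.154 to 0.505% in the other 7. The snRNA share was 0.431% ± 0.189 after BPA and 0.252% ± 0.0981 in controls (SD, n = 4 each; exact permutation p = 0.143, adjusted 0.3).

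**Figure D4:**
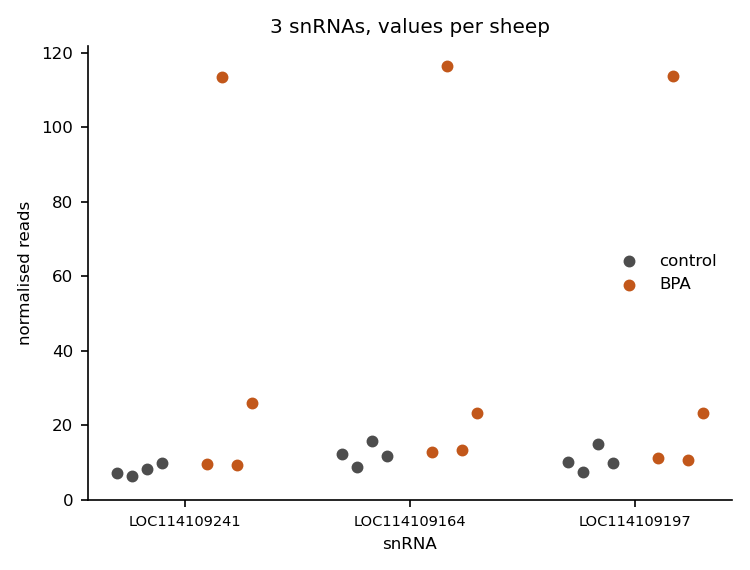
Normalised reads of the snRNAs LOC114109241, LOC114109164 and LOC114109197 in each sheep (grey, 4 controls; orange, 4 BPA). Sheep 918 lies at 113 to 116 and every other sheep at or below 26.02.

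Whether BPA went with another difference in visceral fat of the same sheep was tested as an interaction over the 16 libraries of both depots. 2 of 470 features (0.426%) were called (15, or 3.19%, at an unadjusted p under 0.05), both with a higher effect in subcutaneous fat, LOC114117093 and LOC114117060. The effect of LOC114117093 was 1.87 higher in subcutaneous than in visceral fat on the log2 scale (SE 0.34, 95% interval 1.19 to 2.55, adjusted p = 3.64e-06) and that of LOC114117060 was 1.73 higher (SE 0.38, adjusted p = 0.000132). In visceral fat the first had 70.7, 107.1, 126.1 and 103.7 normalised reads after BPA and 169, 268, 201 and 268 in controls, without overlap, and it fell by 1.15 on the log2 scale (SE 0.29, adjusted p = 0.00355), 1 of 2 calls among 437 features there (0.458%; 8.01% at an unadjusted p under 0.05). The second had 81.01, 121, 151 and 126.2 after BPA and 178, 338, 235 and 335 in controls and fell by 1.16 (SE 0.33, adjusted p = 0.00901). The share of all snRNA reads in visceral fat was also lower after BPA. It was 0.229, 0.251, 0.176 and 0.155% in exposed sheep and 0.702, 0.358, 0.308 and 0.291% in controls, without overlap. In subcutaneous fat the mean share was 0.431% after BPA and 0.252% in controls, with overlap. Scaled to the class total (CPM), the 2 differences between depots were 1.65 and 1.51. The part of the class share in these differences was not tested.

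Within each sheep, the log2 value of LOC114117093 in subcutaneous fat minus that in visceral fat was 0.08 to 1.67 after BPA and -1.32 to -0.35 in controls. LOC114117060 gave 0.31 to 1.51 and -1.23 to -0.15. The sizes and signs of these differences are relative, since the scale was set within each depot, so they do not show which depot held more. A scale per depot cancels between the groups, so the contrast of exposed with control sheep can be read. The exact permutation test over the sheep gave p = 0.0286 for each (unadjusted), the smallest that 70 splits allow. It was run only on these 2 called rows, and ranges that do not overlap fix this value, so it is no separate evidence. Both calls were made without each sheep in turn, with the sheep as a block (adjusted p = 0.000173 and 0.00181) and with a term for the library number set, which differs between the visceral groups (3 of 4 controls but 1 of 4 exposed sheep have early numbers). They were lost in 1 fit over all 4 classes (adjusted p = 0.151 for both), in which the error of an snRNA is no longer taken from its class alone; this setting was added after the data were seen.

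**Figure D5:**
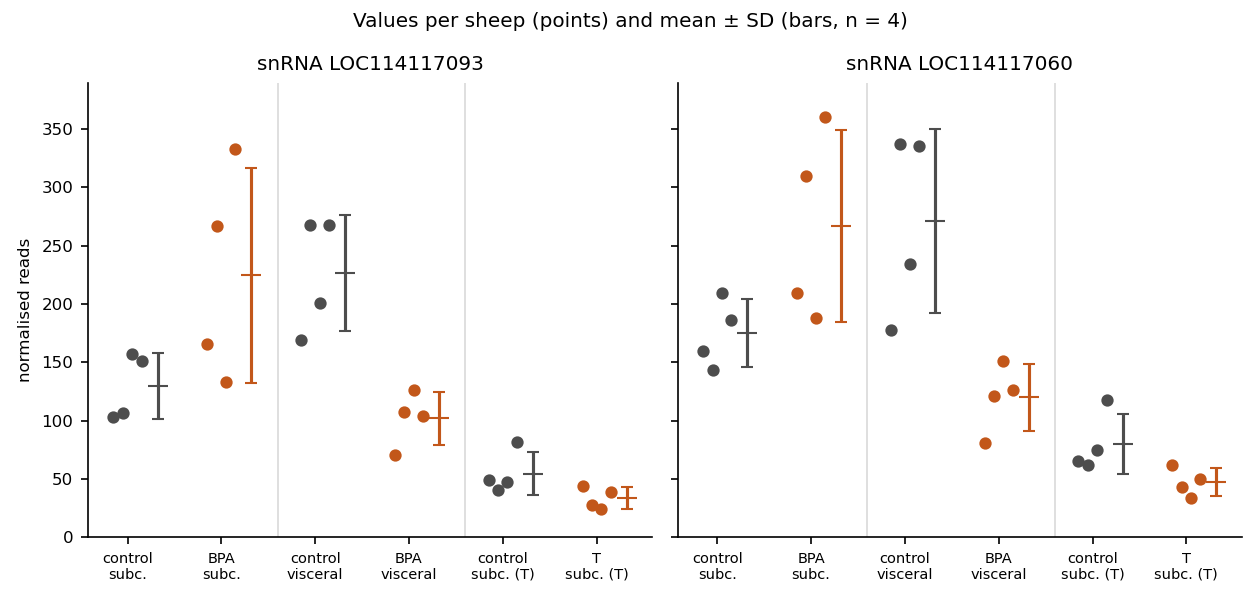
Normalised reads of the snRNAs LOC114117093 and LOC114117060 in each sheep (points) with the mean and SD (bars, n = 4) for subcutaneous and visceral fat of the BPA cohort and subcutaneous fat of the testosterone cohort (T). Levels compare only between grey lines, since scales were set per depot and cohort; in subcutaneous fat BPA sheep 918 and 984, the 2 highest points, lie above all controls, and in visceral fat all 4 BPA sheep lie below all controls.

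The DLK1-DIO3 microRNAs had 24 of 24 tested members with a lower BPA effect in subcutaneous than in visceral fat (median -0.65), beside 39 of 73 microRNAs in all (median -0.01), but 0 were called and the smallest adjusted p was 0.82. In visceral fat itself 21 of 27 stood above 0 (median 0.26, with 45 of 76 of all microRNAs above 0). The 73 microRNAs of the background include the 24 cluster members. In subcutaneous fat control 902 was the highest sheep for 20 of the 23 members tested there. The balance between depots was not examined without that sheep. The let-7 members had a median difference of 0.21 between the depots, with 5 of 7 above 0, and MIRLET7B had 0.85 (SE 0.41, adjusted p = 0.82), its effect in visceral fat being -0.11 (SE 0.30).

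The second interaction compared the BPA effect with that of testosterone in subcutaneous fat of the other cohort, which has its own controls. 2 of 457 features (0.438%) were called (29, or 6.35%, at an unadjusted p under 0.05); of testosterone alone 0 of 407 were called (0%; 2.95% unadjusted). LOC114117093 had an effect 1.39 higher with BPA (SE 0.39, adjusted p = 0.014); in the testosterone cohort it had 43.9, 27.4, 24.3 and 39.1 normalised reads after testosterone and 49.3, 40.5, 47.2 and 81.5 in controls, a difference of -0.67 (log2, SE 0.32, adjusted p = 0.581). MIR3959 had an effect 2.14 lower with BPA (-2.14, SE 0.51, 95% interval -3.22 to -1.07, adjusted p = 0.0397). It had 21.8, 17.5, 18.3 and 17.02 normalised reads after testosterone and 4.71, 10.2, 7.28 and 6.90 in its controls, all at low levels. Every testosterone sheep lay above every control there, and the BPA difference alone was -0.86 and not called (adjusted p = 0.522 in limma). Without each of the 16 libraries in turn MIR3959 lost its call in 12 (adjusted p up to 0.118), and it lost it with the term for the library number set (0.208). Both calls were lost in 1 fit over all 4 classes and without any 1 of 6 libraries (BPA cohort controls 902 and 908, BPA sheep 918 and 984, and testosterone sheep 185 and 233). The let-7 median was 0.30 with BPA and -0.42 with testosterone, and MIRLET7B differed by 1.17 (SE 0.50, adjusted p = 0.25). The DLK1-DIO3 median was -0.40 with BPA and -0.01 with testosterone. For all microRNAs tested the median was -0.05 with BPA and -0.11 with testosterone, where 50 of 71 stood below 0.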

How the data were processed

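Small RNA libraries from total RNA of adipose tissue were sequenced; per the submitters' processing notes cutadapt 3.2, STAR 2.6.0c and featureCounts 1.6.1 were used; the labels used here name no genome build. The authors deposited normalised signal values (from the values, read counts divided by a size factor for each library) in 1 table per RNA class and cohort. Dividing by the step of each column gave whole reads for 100% of values (tolerance 1e-05), and the size factors equalled median-of-ratios factors within depot and class. Rows that name no feature were not present.

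Groups were taken from the titles. Features with a mean of at least 5 were tested on log2(value + 1), a scale that understates changes of low features, with limma 3.58.1 (trend, 1 fit per class, Benjamini-Hochberg within the class, adjusted p under 0.05; R 4.3.3). Totals and shares had two-sided exact permutation tests. edgeR 4.0.16 and DESeq2 1.42.0 were run on the recovered reads as alternatives (3 and 0 features called). The fits were tested on simulated data. Intervals rest on the spread between 4 sheep a group, drawn towards the spread of the class. Those of snRNAs rest on the class alone, because the prior degrees of freedom were infinite in the subcutaneous fit and in both interactions. They can understate the spread of a single snRNA between sheep. Every pair of libraries within a group differed beyond counting noise.

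The members and lists were chosen with earlier results of these data known. Features named are those called, the 5 of smallest p in each class, the 5 most abundant microRNAs, the 2 of smallest p in each list with 3 or more tested members and the leading feature of each interaction; other named features were chosen after their values were seen. The position of 3 named snoRNAs is not reported here. Both depots come from the same sheep by the labels: the median correlation of deviations was 0.18 within a sheep (5 of 8 sheep over 0.1) and -0.02 between sheep. Alternatives covered scaling, pseudocount, filter, test, library number sets and each library left out.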

Additional observations from a re-analysis of the deposited data

Results flagged for a closer look

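4 of 76 groups of 4 values held 1 sheep far from the other 3, where chance flags about 1 in 20. BPA sheep 918 had 116 normalised reads of the snRNA LOC114109164 (next highest 23.4), 113 of LOC114109241 (next 26.02) and 196076 of MIRLET7A (next 142296). Control sheep 928 had 3.65 of the snoRNA LOC114118175, beside 13.5 to 15.5 in the other controls.

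The effect of BPA differed between depots for the snRNAs LOC114117093 (by 1.87 on the log2 scale, adjusted p = 3.64e-06 in limma) and LOC114117060 (1.73, adjusted p = 0.000132). Over 15 other settings the difference of the first ranged from 1.65 to 3.02 and was called in 14, with adjusted p from 8.88e-11 to 0.151; that of the second ranged from 1.51 to 2.88 and was called in 14. The effect of BPA differed from that of testosterone in subcutaneous fat for LOC114117093 (1.39, adjusted p = 0.014, called in 15 of 22 other settings) and MIR3959 (-2.14, adjusted p = 0.0397, called in 7 of 21).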

How the results depend on the processing

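Of 31 named features 25 kept their sign in every setting run. Those of smallest p in each class were picked from these same libraries, so their kept signs are no separate evidence. The 6 that reversed in a setting stood at -0.17 (MIR17) to 0.35 (MIR106B) as reported, and none was among the 5 of smallest p in its class. With CPM and with 1 size factor the median microRNA moved by -0.25 and -0.40. MIR99A was at -0.25 with CPM, -0.39 with 1 size factor over all 4 classes, -0.0052 with edgeR and -0.025 with DESeq2, and at -0.13 to 0.12 with 1 library left out. MIR23B was at -0.22, -0.36 and, in libraries numbered from 81, -0.012, with -0.029 to 0.14 leaving 1 out; MIR194 at -0.10 and -0.24; MIR30D at -0.082 and MIR106B at -0.049 with 1 size factor; MIR17 at -0.33 to 0.11 leaving 1 out. The count of called features (0) became 3 with a mean of at least 1 (LOC114109241, LOC114117060 and LOC114117093) and 3 with edgeR, and was 0 to 5 leaving 1 library out; it was 0 in the other settings. The number of BPA effects that differed between depots (2) was 2 or 3 in all planned settings, the replicate block included (2), and 0 in 1 fit over all classes. The number that differed from testosterone (2) was 0 in 1 fit over all classes and 0 to 4 leaving 1 library out. The snoRNA share difference reversed to -0.274 points in libraries numbered from 81 and ranged over -0.274 to 0.398 leaving 1 out; total reads ranged over -201982 to 223717. The cause of these changes was not tested. Only 71 microRNAs, 215 of 694 snoRNAs, 39 of 1148 snRNAs and 152 of 2973 lncRNAs passed the limit on the mean. The part of sequencing depth in these counts was not tested.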
